A study of Mus musculus with 6 samples.

Results

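The collagen genes are the genes whose symbol in the deposited expression table has the form Col, a type number, the letter a and a chain number. The table of 21705 genes held 42 of them, and 29 had a mean of at least 10 normalized counts over the 6 hearts and were tested; the other 13 lay below that level. The members were placed in 3 classes: 8 tested fibrillar, 6 basement membrane and 15 other collagens. Messenger RNA of whole hearts was sequenced from female mice of the inbred FVB strain without any engineered allele, which were 12 to 16 weeks old. One arm was given vehicle and the other trametinib, which blocks the ERK-activating kinases MEK1 and MEK2, at 3 mg/kg daily over 14 days, and each arm had 3 hearts. The table heads the vehicle columns as PBS. Col6a3, the third chain of the common form of collagen VI, was not analysed here.

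Collagens are secreted proteins in which 3 chains wind into a triple helix. Fibrillar collagens, chiefly types I and III in the heart, form the fibres that bear tension between muscle bundles and are made mainly by fibroblasts. Basement membrane collagen, type IV, forms a sheet-like network around cardiomyocytes and capillaries, and its chains assemble in a few fixed combinations, of which the trimer of Col4a1 and Col4a2 products is the common one. The other collagens include the beaded filaments of type VI, the multiplexins XV and XVIII that sit at basement membranes, short-chain types such as VIII, and types that decorate fibrils.

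Trametinib hearts had less RNA of both type I chains, Col1a1 and Col1a2, of Col5a2, Col5a3 and Col27a1, of Col6a1, Col6a2, Col8a1 and Col15a1, and of the minor type IV chains. They had more of the major type IV chains Col4a1 and Col4a2 and of the rarer Col6a5 and Col23a1, and Col3a1 did not pass. Among the 29 tested members, 13 were called lower and 4 higher, and 12 missed an adjusted p of 0.05 (limma on log2 of value + 1, adjusted by Benjamini-Hochberg over all 13581 genes tested). Over all genes tested, 22.8% were lower and 21.6% higher, 44.5% in all. The median log2 fold change was -0.61 for the collagens and -0.01 for all genes tested. The call lower fell to 5 of 8 fibrillar, 4 of 6 basement membrane and 4 of 15 other collagens, and the call higher to 0, 2 and 2. For the fibrillar class, limma and voom also gave 0 higher at an unadjusted p below 0.05. The trametinib values lay wholly below the vehicle values for 13 members and wholly above them for 4, where 29.5% and 27% of all genes tested did so, 56.5% together. Without 1 heart, the number lower ran from 8 (without trametinib replicate 2) to 16 (without vehicle replicate 1) and the number higher from 2 to 4, with 2 without vehicle replicate 1 or 2 or trametinib replicate 1 or 3. In those fits 2490 to 2856 of all genes tested were lower and 2145 to 2799 higher, against 3098 and 2939 with all hearts.

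**Figure D1:**
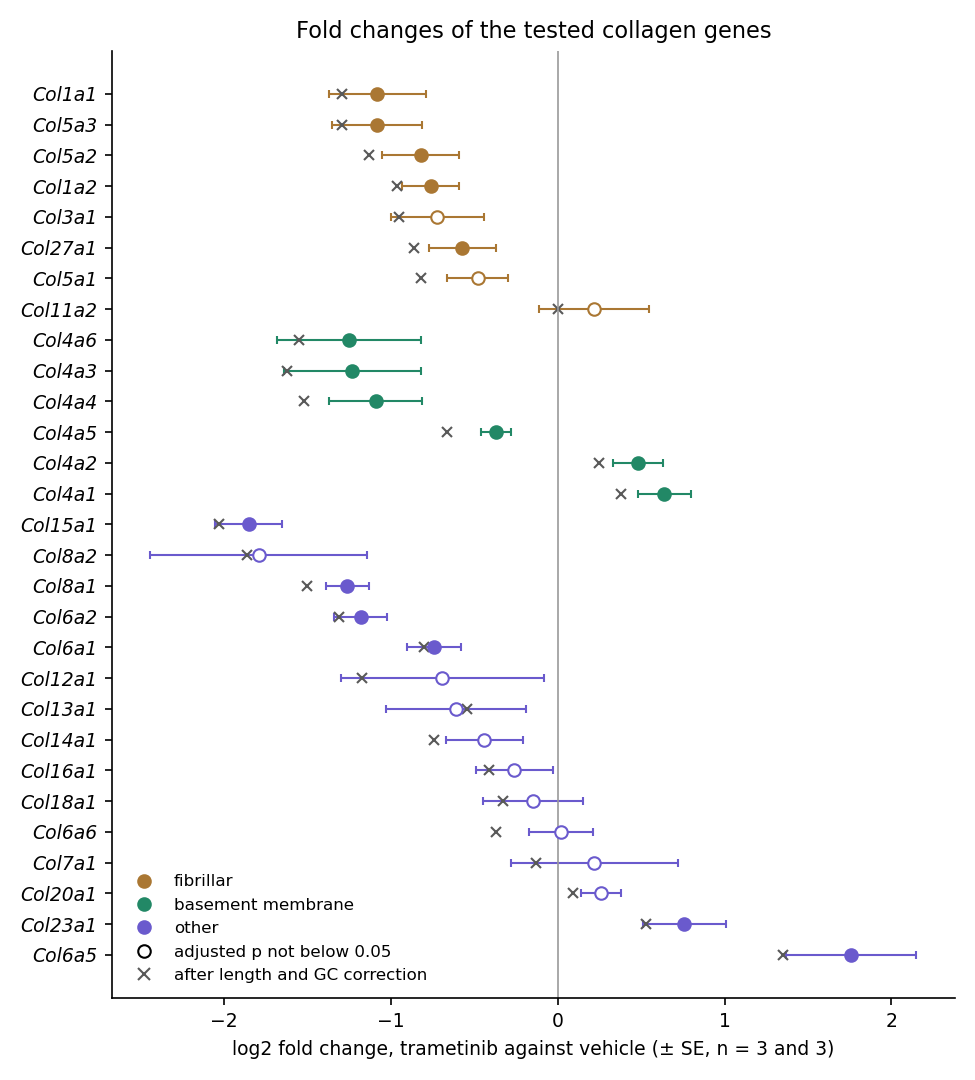
Log2 fold change of each tested collagen gene, trametinib against vehicle (x axis; points with bars are the limma estimate ± SE, 3 hearts in each arm; filled points passed an adjusted p of 0.05), with crosses for the estimate after correction for transcript length and GC content. 7 of the 8 fibrillar genes lie left of 0, whereas Col4a1 and Col4a2 lie right of it; crosses lie left of most points.

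Fold changes in these hearts followed transcript length, with a Spearman rho of 0.51 across 13512 genes, which are not independent replicates. Collagen transcripts are long: the median of the longest annotated transcript was 6119 nt for the 29 members and 3167 nt for all genes tested, and their median GC content was 56.2% against 50.2%. After a correction for length and GC content in each heart, 15 collagens were lower and 0 higher by limma (2 higher at an unadjusted p below 0.05), where 12.2% and 12% of all genes were, 24.2% together, and the collagen median was -0.82. All 13 genes lower before the correction were lower after it, joined by Col3a1 and Col5a1, and all 4 genes that were higher lost the call. Estimated sequencing depth was also higher in every trametinib heart (23033135 to 24692470 reads) than in every vehicle heart (14304528 to 16047059), so depth and treatment cannot be told apart.

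The promoter windows of the type IV pair that was higher, of Col15a1 and of the type I chain Col1a2, both lower, are shown, chosen after their values were seen. Col4a1 and Col4a2 are neighbours on chromosome 8 that are read away from each other: in the GENCODE M21 annotation of GRCm38, Col4a1 spans chr8:11198423-11312826 on the minus strand and Col4a2 spans chr8:11312805-11449287 on the plus strand, so that their starts are 21 bases apart and overlap. The 300-base windows below (RefSeq, GRCm38.p6, 250 bases before and 50 after the start, 5′ to 3′ on the gene's strand) carry in capitals each match to the GC box GGGCGG, the CCAAT box CCAAT, the TATA box TATAAA, the AP-1 site TGAGTCA and the ETS site CCGGAA on either strand.
Col4a1 (chr8:11312777-11313076, minus strand): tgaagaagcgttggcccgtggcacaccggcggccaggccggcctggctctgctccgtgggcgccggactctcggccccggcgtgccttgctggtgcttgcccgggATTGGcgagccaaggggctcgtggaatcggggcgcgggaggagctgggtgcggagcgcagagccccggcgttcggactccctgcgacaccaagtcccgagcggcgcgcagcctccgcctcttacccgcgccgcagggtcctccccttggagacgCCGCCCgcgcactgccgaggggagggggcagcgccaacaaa
Col4a2 (chr8:11312555-11312854, plus strand): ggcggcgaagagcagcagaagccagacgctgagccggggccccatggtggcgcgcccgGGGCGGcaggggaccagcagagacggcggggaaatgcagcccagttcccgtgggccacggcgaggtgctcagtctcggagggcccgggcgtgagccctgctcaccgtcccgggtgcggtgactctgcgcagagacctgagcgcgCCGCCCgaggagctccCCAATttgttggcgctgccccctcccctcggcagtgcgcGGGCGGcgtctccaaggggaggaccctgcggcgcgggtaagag
Col15a1 (chr4:47207762-47208061, plus strand): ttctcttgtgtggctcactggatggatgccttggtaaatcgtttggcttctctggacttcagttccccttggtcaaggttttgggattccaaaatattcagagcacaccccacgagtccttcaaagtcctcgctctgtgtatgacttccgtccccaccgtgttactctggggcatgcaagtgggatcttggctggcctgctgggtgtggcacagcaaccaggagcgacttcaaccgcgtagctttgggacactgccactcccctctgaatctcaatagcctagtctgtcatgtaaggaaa
Col1a2 (chr6:4505368-4505667, plus strand): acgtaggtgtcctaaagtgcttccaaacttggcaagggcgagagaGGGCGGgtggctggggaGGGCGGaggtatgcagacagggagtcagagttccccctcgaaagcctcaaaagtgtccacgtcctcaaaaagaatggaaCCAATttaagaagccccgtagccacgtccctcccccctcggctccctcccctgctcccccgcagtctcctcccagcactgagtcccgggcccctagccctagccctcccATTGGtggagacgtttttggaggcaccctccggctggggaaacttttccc

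The Col4a1 window held 1 GC box and 1 CCAAT box, the Col4a2 window 3 and 1, and the Col1a2 window 2 and 2, whereas the Col15a1 window held none of the 5 motifs. For these last genes the windows follow RefSeq starts that differ from GENCODE M21, which begins Col15a1 at 47208161, past the end of its window, and Col1a2 at 4504814, before the start of its window. The last 78 bases of both type IV windows are the same stretch of chromosome read from either strand, so the GC box there is counted in both. RefSeq windows matched 24 of the 29 members, with 26 windows. Of these, 19 held a GC box and 8 a CCAAT box, where 35.7% and 37.4% of all 32851 windows did. An AP-1 site was in 1 collagen window, that of Col6a1, and an ETS site in 0, where 5.2% and 14.9% of all windows held one.

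Levels between genes are compared per kilobase of the longest annotated transcript. In vehicle hearts the order began with Col4a1 at 1141 normalized counts per kb (range over hearts 985 to 1264) and Col4a2 at 1027 (923 to 1181), whose ranges overlap. Col3a1 followed at 739 (545 to 1061), and then Col15a1 and Col1a2, both at 587, Col6a2 and Col6a1, both at 510, Col1a1 at 361 and Col4a5 at 222. The hearts' ranges overlapped between neighbours from Col4a1 to Col1a1, but the highest Col4a5 value (251) lay below the lowest of Col1a1 (273). At the other end were Col6a5 at 1.26 and Col7a1, the anchoring fibril collagen, at 1.16. In trametinib hearts the first places were held by Col4a1 at 1796 and Col4a2 at 1442, and Col3a1 came next at 442. Below it lay Col1a2 at 343, Col6a1 at 303, Col6a2 at 224, Col4a5 at 172, Col1a1 at 170 and Col15a1 at 159.

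Among the fibrillar collagens, Col1a1, which encodes the alpha-1 chain of type I, measured 1618, 1831 and 2967 normalized counts in the vehicle hearts and 1254, 670 and 1108 in the trametinib hearts. Every trametinib heart lay below every vehicle heart, and vehicle replicate 3 stood well above the other 2 of its arm. The log2 fold change was -1.08 ± 0.29 (SE; adjusted p = 0.0186; -1.29 after the length and GC correction). Its partner chain Col1a2 fell from 2615, 2832 and 3966 to 2037, 1530 and 1931 (-0.76 ± 0.17; adjusted p = 0.00927), again with no overlap. Both calls held with each heart left out in turn.

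Col3a1, which encodes the type III collagen that shares fibres with type I, measured 3032, 3398 and 5905 in vehicle and 2838, 1712 and 2825 in trametinib hearts. The arms did not overlap, yet the gap between the lowest vehicle and the highest trametinib heart was small beside the spread in vehicle. Its log2 fold change of -0.72 ± 0.28 missed the threshold (adjusted p = 0.0773), and it passed after the length and GC correction (-0.95, with 0.0395 as adjusted p) and when replicate number entered the fit as a block (also 0.0395), but not with the mean transcript length (adjusted p = 0.104).

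Type V collagen is incorporated in type I fibrils and is known to limit their diameter. Col5a3 was lower in every trametinib heart (341, 462 and 745 against 270, 219 and 209; -1.08 ± 0.27; adjusted p = 0.0137). So was Col5a2 (664, 855 and 1100 against 606, 363 and 518; -0.82 ± 0.23; adjusted p = 0.0236), although that call was lost without vehicle replicate 2 or 3 or trametinib replicate 2, with adjusted p up to 0.0695. Col5a1 measured 1189 ± 274 and 841 ± 127 (SD, n = 3) and did not pass (-0.48 ± 0.18; adjusted p = 0.0607; -0.82 and adjusted p = 0.0127 with length and GC corrected). Col27a1, a minor fibrillar chain, was lower by a narrow margin (-0.57 ± 0.20; adjusted p = 0.0481), a call that held in 1 of the 6 fits with a heart left out. Col11a2, a chain known mainly from cartilage, had values that overlapped between the arms (101 ± 42.4 and 112 ± 23.2; adjusted p = 0.625). The fibrillar genes Col2a1, Col11a1 and Col24a1 lay below the mean of 10.

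**Figure D2:**
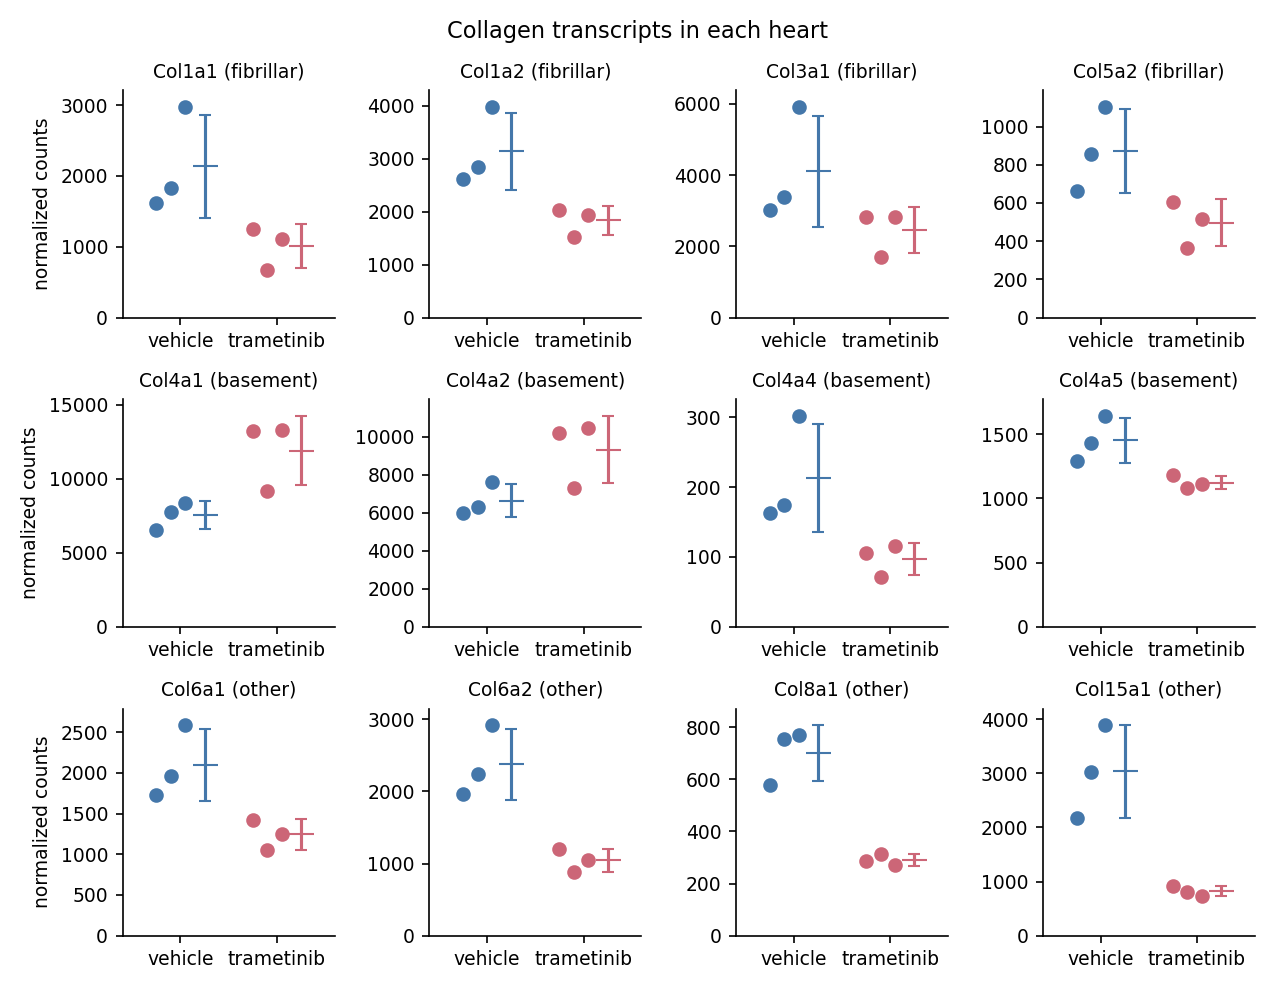
Normalized counts (y axis, from 0) of 12 collagen genes in each of the 3 vehicle (blue) and 3 trametinib (red) hearts; the bar beside each set of points is the mean ± SD. Col1a1, Col1a2, Col3a1, Col5a2, Col4a4, Col4a5, Col6a1, Col6a2, Col8a1 and Col15a1 have every trametinib heart below every vehicle heart. Col4a1 has the reverse, and the arms of Col4a2 overlap.

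The 6 type IV genes lie in 3 head-to-head pairs, and their changes split by pair. Col4a1 measured 6518, 7755 and 8362 in vehicle and 13190, 9188 and 13254 in trametinib hearts, so that all 3 trametinib hearts were above all 3 vehicle hearts. Its log2 fold change was 0.64 ± 0.16 (adjusted p = 0.0133), and 0.38 with length and GC corrected (adjusted p = 0.1; 0.66 and adjusted p = 0.0161 with the mean in place of the longest transcript length). Col4a2 went from 5956, 6293 and 7619 to 10193, 7274 and 10441 (0.48 ± 0.15; adjusted p = 0.0372), and here trametinib replicate 2 lay within the vehicle range. The Col4a2 call was lost without vehicle replicate 1 or 2 or trametinib replicate 1 or 3, with adjusted p up to 0.116, and with length and GC corrected (0.25, adjusted p = 0.244). The Col4a1 call held with each heart left out, at adjusted p up to 0.0489. The annotated exons of Col4a1 and Col4a2 share 22 bases on opposite strands, or 0.3% of the exon bases of each, and whether the counting used strand is not given in the sources used here.

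Col4a3 and Col4a4, which start 72 bases apart on chromosome 1, encode chains of the type IV trimer best known from kidney glomeruli. Col4a4 measured 162, 174 and 301 in vehicle and 105, 71.3 and 115 in trametinib hearts, with no overlap (-1.09 ± 0.28; adjusted p = 0.0159). Col4a3 was lower too (68.8, 119 and 186 against 73.3, 33.9 and 45.2; -1.23 ± 0.41; adjusted p = 0.0418), but trametinib replicate 1 lay above vehicle replicate 1. An RNA on the other strand, C430014B12Rik, shares 5.6% of the annotated exon bases of Col4a3, so its value is less certain. On the X chromosome, Col4a5 and Col4a6 start 1309 bases apart. Col4a5, the third partner of that trimer, fell from 1291, 1430 and 1639 to 1178, 1078 and 1111 (-0.37 ± 0.09; adjusted p = 0.0164), a small change with no overlap. Col4a6 was near the threshold (129 ± 66.7 and 49.5 ± 15.1; -1.25 ± 0.43; adjusted p = 0.049). Its arms overlapped, with trametinib replicate 1 (64.9) above vehicle replicate 1 (59.6), and its call was lost with voom (adjusted p = 0.0544). The Col4a3 call held in 2 and the Col4a6 call in 1 of the 6 fits with a heart left out, and the Col4a5 call in 5, being lost without trametinib replicate 2 (adjusted p = 0.0525).

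Collagen VI forms beaded filaments around many cell types. Col6a2 measured 1966, 2242 and 2916 in vehicle and 1203, 883 and 1045 in trametinib hearts (-1.18 ± 0.16; adjusted p = 0.00118). Its neighbour Col6a1 fell less, from 1731, 1961 and 2583 to 1426, 1053 and 1250 (-0.74 ± 0.16; adjusted p = 0.00878). Neither gene had overlapping arms, and both calls held with each heart left out. Col6a5, a far rarer chain, was higher (6.12, 12.4 and 16.6 against 43.1, 35.3 and 40.1; 1.76 ± 0.39; adjusted p = 0.0086). Those values correspond to an estimated 4.0 to 12.2 reads in vehicle and 39.6 to 45.9 in trametinib hearts, and after the length and GC correction the change was 1.35 (adjusted p = 0.0704), or 1.41 with the mean transcript length (adjusted p = 0.0338). Col6a6 overlapped between the arms (155 ± 36.2 and 156 ± 18.7), and Col6a4 was listed at 0 in every heart.

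Col15a1, a multiplexin collagen that links basement membranes to the fibres beside them, had the largest decrease among the members called lower. It measured 2183, 3032 and 3887 in vehicle and 923, 804 and 737 in trametinib hearts, with the highest trametinib heart far below the lowest vehicle heart. The log2 fold change was -1.85 ± 0.20 (adjusted p = 0.000476), or 0.28 of the vehicle level, and ran from -2.07 to -1.65 with a heart left out. Col18a1, the other multiplexin and the source of endostatin, measured 209, 247 and 372 in vehicle and 244, 165 and 345 in trametinib hearts, which overlap (-0.15 ± 0.30; adjusted p = 0.701).

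Col8a1, which encodes a short-chain collagen known from vessel walls and from the matrix of injured hearts, measured 576, 753 and 769 in vehicle and 285, 315 and 270 in trametinib hearts (-1.26 ± 0.13; adjusted p = 0.000436). The hearts of each arm lay close together and far from the other arm. Its partner Col8a2 was lower in every trametinib heart (10.7, 24.7 and 47.5 against 8.46, 2.67 and 9.04) but rested on an estimated 3 to 35 reads per heart and missed the threshold (-1.79 ± 0.65; adjusted p = 0.0572). The transmembrane collagen Col23a1 was higher (45.9, 50.8 and 61.1 against 105, 62.4 and 108; 0.76 ± 0.25; adjusted p = 0.0431), a call that held in 1 of the 6 fits with a heart left out and was lost with length and GC corrected (0.53, adjusted p = 0.187).

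The collagens that follow did not pass, and those other than Col14a1 were named after their values were seen. Col14a1, which binds the surface of type I fibrils, measured 587, 883 and 1155 in vehicle and 684, 537 and 657 in trametinib hearts, with overlap (-0.44 ± 0.23; adjusted p = 0.163). Log2 fold changes of Col12a1, Col16a1 and Col20a1 ran from -0.69 to 0.26, with adjusted p from 0.11 to 0.397. The transmembrane Col13a1 and the anchoring Col7a1 had -0.61 ± 0.42 (adjusted p = 0.278) and 0.22 ± 0.50 (adjusted p = 0.746). Just inside the minimum mean of 10 stood Col7a1, with a mean of 11.7, and just outside stood Col22a1, with 9.82. Col22a1, known from muscle and tendon junctions, had 4.59, 30.8 and 19 in vehicle and 0.94, 0.89 and 2.71 in trametinib hearts. Col17a1, the next below at a mean of 8.83, had 4.59, 3.08 and 6.78 against 17.9, 8.03 and 12.7. The 13 members below the minimum were not tested.

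**Figure D3:**
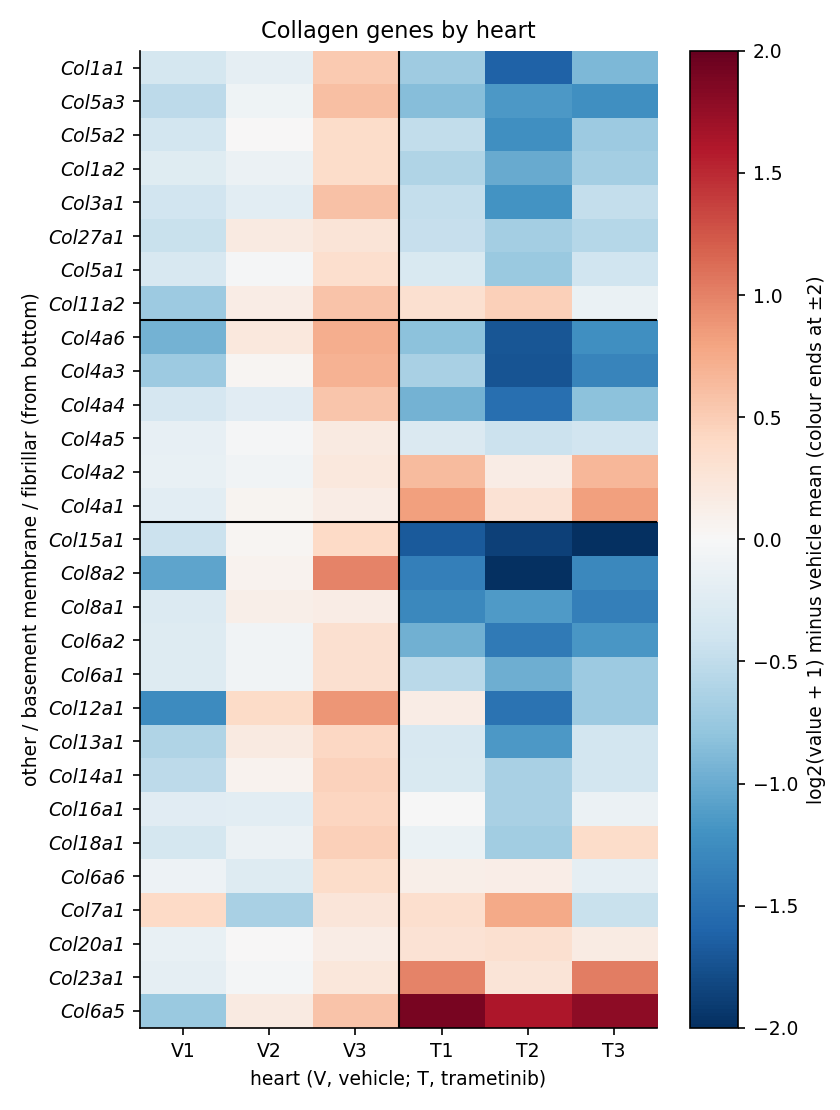
Log2(value + 1) of each tested collagen gene in each heart minus the mean of the 3 vehicle hearts (colour), with genes grouped as fibrillar (top), basement membrane (middle) and other (bottom). The V3 column holds the highest vehicle value for 28 of 29 genes, and the T2 column the lowest trametinib value for 22 of 29.

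The hearts of an arm differed in step across the members. Vehicle replicate 3 had the highest vehicle value for 28 of the 29 collagens (96.6%) and vehicle replicate 1 the lowest for 27 (93.1%), where over all genes tested these shares were 41.4% and 33.6%. Trametinib replicate 2 had the lowest trametinib value for 22 collagens (75.9%, against 43.1% of all genes). For fibroblast markers, vehicle replicate 3 was the highest of its arm for 9 of 12 and vehicle replicate 1 the lowest for 10, whereas trametinib replicate 2 was the lowest of its arm for 5 (41.7%) and trametinib replicate 3 for 6. Among cardiomyocyte markers, vehicle replicate 3 was the highest for 2 of 10. That heart was the highest for 5 of 12 endothelial and 6 of 10 mural markers. It was also the highest for 8 of 13 other basement membrane genes and 10 of 12 collagen processing genes. Trametinib replicate 2 was the lowest of its arm for 2, 5, 6, 9 and 10 genes of these lists, in the same order. In whole-heart RNA, fewer cells of a type and less RNA per cell cannot be told apart.

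Summed over its tested members, the fibrillar class came to 9431, 10891 and 16581 normalized counts in vehicle and 8231, 5466 and 7713 in trametinib hearts, without overlap, a ratio of means of 0.58. Basement membrane collagens summed to 14055, 15904 and 18300 and to 24805, 17680 and 25016 (ratio 1.40), with trametinib replicate 2 within the vehicle range. The other collagens summed to 7927, 9881 and 12764 and to 5702, 4481 and 5127 (ratio 0.50). The basement membrane sum is carried by Col4a1 and Col4a2: the median log2 fold change over the 6 genes of that class was -0.73, close to -0.74 for the fibrillar class, and it was -0.44 for the others. As shares of the collagen signal of a heart, basement membrane genes held 38.4% to 44.7% in vehicle and 64.0% to 66.1% in trametinib hearts, and fibrillar genes 29.7% to 34.8% and 19.8% to 21.2%. These shares are of the tested collagens only, without Col6a3, and are not corrected for length. The tested collagens together held 0.143% to 0.219% of the total in vehicle and 0.126% to 0.179% in trametinib hearts, which overlap.

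**Figure D4:**
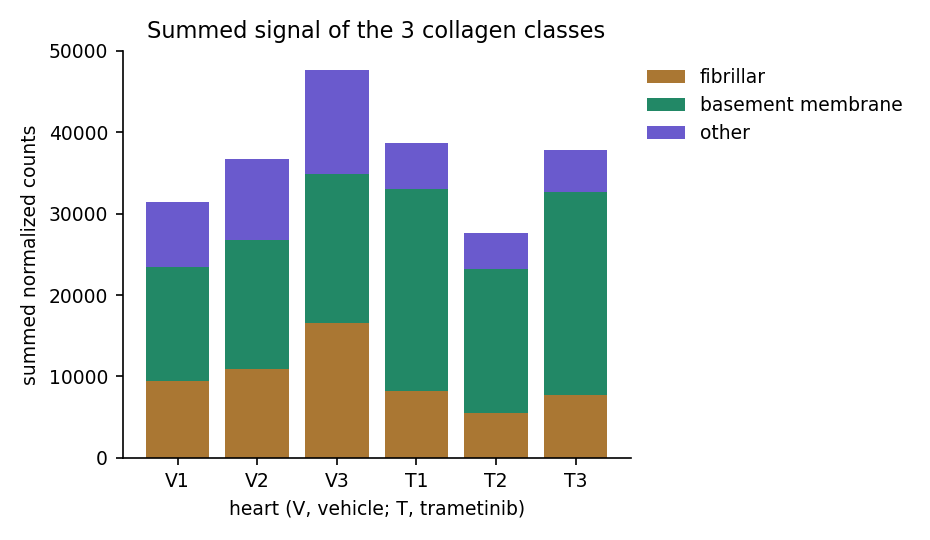
Summed normalized counts of the tested collagen genes in each heart (V, vehicle; T, trametinib), stacked by class. The basement membrane part is the tallest in every heart and is 64.0% to 66.1% of the bar in trametinib hearts against 38.4% to 44.7% in vehicle hearts.

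Ratios of chains within a heart do not depend on the factor by which the heart's values were scaled. For each of 7 ratios the 3 trametinib hearts were compared with the 3 vehicle hearts by a two-sided exact permutation test, whose smallest possible p with 3 against 3 is 0.1. The Col6a1 to Col6a2 ratio was 0.88, 0.87 and 0.89 in vehicle and 1.19, 1.19 and 1.2 in trametinib hearts. The spread within each arm (SD 0.01) was far below the gap between arms (exact permutation p = 0.1). The Col4a1 to Col4a2 ratio was 1.14 ± 0.08 in vehicle and 1.28 ± 0.02 in trametinib hearts (SD, n = 3; exact permutation p = 0.1). Here vehicle replicate 2, at 1.23, lay close to the lowest trametinib heart, at 1.26.

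Within the fibrillar class, the Col3a1 to Col1a1 ratio was 1.91 ± 0.07 in vehicle and 2.46 ± 0.17 in trametinib hearts, and the Col5a1 to Col5a2 ratio 1.37 ± 0.04 and 1.73 ± 0.18, without overlap (SD, n = 3; exact permutation p = 0.1 for both). Col1a1 relative to Col1a2 was 0.62, 0.65 and 0.75 in vehicle and 0.62, 0.44 and 0.57 in trametinib hearts, where the lowest vehicle and the highest trametinib heart are nearly equal. The remaining 2 ratios, one across classes and one between the multiplexins, had wider gaps. The Col4a1 to Col1a1 ratio was 4.03, 4.24 and 2.82 in vehicle and 10.5, 13.7 and 12.0 in trametinib hearts, and the Col15a1 to Col18a1 ratio 10.4, 12.3 and 10.5 and 3.78, 4.88 and 2.14. All 7 had an exact permutation p of 0.1 and an adjusted p of 0.1, the smallest the design allows, so none could pass 0.05.

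**Figure D5:**
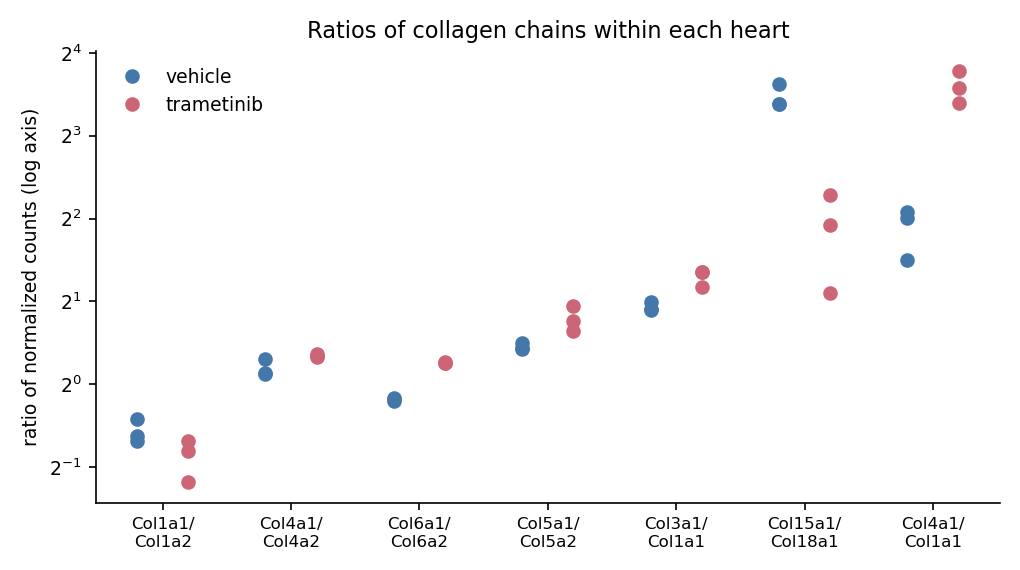
Ratio of normalized counts of 2 collagen genes within each heart (log axis), for 3 vehicle (blue) and 3 trametinib (red) hearts. The Col6a1/Col6a2 points of each arm lie on top of each other, and Col15a1/Col18a1 and Col4a1/Col1a1 show the widest gaps between arms.

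Collagen chains are hydroxylated, glycosylated and folded in the endoplasmic reticulum before they are secreted. For 20 tested genes of these steps the counts were 6 lower and 5 higher, and 9 missed the threshold (median -0.09 on the log2 scale), shares near the 22.8% and 21.6% of all genes tested. The lower ones included members of the prolyl 3-hydroxylation complex: Crtap (-0.39 ± 0.06; adjusted p = 0.00233) and the cyclophilin Ppib (1758 ± 162 and 1206 ± 17.1; -0.54 ± 0.08; adjusted p = 0.00136). Of the relatives of its hydroxylase, Leprel2, now P3h3 (-0.63 ± 0.13), and Leprel4, now P3h4 (-0.42 ± 0.11), were lower. So was the chaperone Fkbp10 (-0.58 ± 0.09; adjusted p = 0.0023). The hydroxylase itself, Lepre1, was lower (-0.26 ± 0.08; adjusted p = 0.0407), whereas another relative, Leprel1, was higher (0.43 ± 0.15; adjusted p = 0.0478). Both were named after their values were seen. Neither kept its call with length and GC corrected (Lepre1 at -0.22 and Leprel1 at 0.43). P4ha1, a prolyl 4-hydroxylase subunit, was higher (0.44 ± 0.10; adjusted p = 0.00906). The collagen chaperone Serpinh1 measured 4138 ± 896 and 3874 ± 484 and did not pass (adjusted p = 0.701); it was named after its values were seen. After the length and GC correction Fkbp10 (-0.44) and Leprel2 (-0.52) were still lower, while the calls of Ppib (0.05, adjusted p = 0.723), Crtap (-0.05, adjusted p = 0.677), Leprel4 (-0.18, adjusted p = 0.186) and P4ha1 (0.30, adjusted p = 0.0707) were lost. In that fit 1 of the 20 genes was higher and 2 lower, where 12% and 12.2% of all genes were.

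Outside the cell, procollagen ends are trimmed and fibrils are cross-linked. Of 12 tested genes for these steps, 5 were lower, 1 higher and 6 did not pass (median -0.43), where 22.8% of all genes tested were lower and 21.6% higher. The procollagen proteinase enhancers Pcolce (1655 ± 165 and 962 ± 69.3; -0.78 ± 0.09; adjusted p = 0.000658) and Pcolce2 (-0.74 ± 0.08; adjusted p = 0.000611) were lower, as were the collagen-binding Sparc (8867 ± 1342 and 5271 ± 549; adjusted p = 0.00234), the C-proteinase Bmp1 (-0.39 ± 0.13; adjusted p = 0.0409) and the cross-linking enzyme Loxl1 (-0.62 ± 0.21; adjusted p = 0.0447). The founding cross-linking enzyme Lox went the other way, from 73.4, 84.7 and 71.9 in vehicle to 201, 133 and 359 in trametinib hearts (1.46 ± 0.33; adjusted p = 0.00932; 1.24 and adjusted p = 0.032 after the correction). With length and GC corrected, Pcolce (-0.41), Pcolce2 (-0.92), Sparc (-0.59) and Lox kept their calls. Bmp1 (-0.38, adjusted p = 0.0647) and Loxl1 (-0.56, adjusted p = 0.0846) missed the threshold with changes close to the uncorrected ones.

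Among 9 tested collagen receptors, 2 were higher and 2 lower (median 0.20), about the share of all genes tested (21.6% and 22.8%). Ddr2, a receptor kinase for fibrillar collagens (0.58 ± 0.08; adjusted p = 0.00128), and the type IV collagen-binding integrin subunit Itga1 (0.65 ± 0.11; adjusted p = 0.00319) were higher, but with length and GC corrected both were 0.14 (adjusted p = 0.26 and 0.444). The collagen uptake receptor Mrc2 (-0.62 ± 0.14; adjusted p = 0.0107) and the fibrillar collagen-binding integrin subunit Itga11 (-0.68 ± 0.21; adjusted p = 0.0353) were lower and stayed so. The shared integrin chain Itgb1 measured 12492 ± 912 and 14461 ± 1035 and did not pass (adjusted p = 0.0603).

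Of 13 tested laminins, nidogens and proteoglycans that share the basement membrane with type IV collagen, 5 were higher, 2 lower and 6 did not pass (median 0.09), where 21.6% of all genes tested were higher and 22.8% lower. The laminin chains Lamb2 (9780 ± 466 and 12284 ± 62.3; 0.33 ± 0.05; adjusted p = 0.00227), Lama4 (0.38 ± 0.09; adjusted p = 0.0113) and Lama3 (0.65 ± 0.16; adjusted p = 0.0155) and perlecan, Hspg2 (0.52 ± 0.12; adjusted p = 0.00912), were among those higher. Lama2, the muscle laminin chain (-0.24 ± 0.08; adjusted p = 0.0361), and Lamb3 (-0.59 ± 0.17; adjusted p = 0.0266) were lower. These transcripts are long, and with length and GC corrected 0 were higher by limma (1 at an unadjusted p below 0.05) and 4 lower, where 12% and 12.2% of all genes were, among them Lama2 (-0.68, adjusted p = 0.00209) and Lamb3 (-0.75, adjusted p = 0.0224).

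The counts of markers below stand against 22.8% lower and 21.6% higher over all genes tested. Of 12 fibroblast markers without collagens, 8 were lower and 1 higher, and their summed level was 81171 to 102945 in vehicle and 56151 to 59556 in trametinib hearts. The markers named here were picked after their values were seen. Tcf21 (-0.90 ± 0.14; adjusted p = 0.00217) and Thy1 (-1.33 ± 0.10; adjusted p = 0.000236) were among those lower, Pdgfra was slightly higher (0.26 ± 0.09; adjusted p = 0.0477; -0.07 and adjusted p = 0.647 with length and GC corrected), and Dcn measured 22227 ± 2631 and 23400 ± 1061 (adjusted p = 0.506). Of 12 endothelial markers 3 were higher and 3 lower, with sums of 41832 to 46438 and 41059 to 42980, and of 10 mural cell markers 4 were higher and 1 lower, with sums of 22303 to 26718 and 25160 to 30142. Cardiomyocyte markers, the RNA that fits the tissue label, had 3 of 10 higher and 7 lower, with sums of 2524103 to 2601190 and 2314598 to 2423419. Atrial markers were all lower (4 of 4), and trametinib replicate 1 had far more Myl4 (1467) than the other 2 (163 and 122). Schwann cell markers were lower for 2 of 5, macrophage markers for 3 of 8, neutrophil markers were higher for 7 of 7 and erythroid markers for 4 of 5. Adipocyte (5 tested), valve or cartilage-like (5) and epicardial markers (1 tested, Upk1b at 0 in every heart) had 0 past the threshold by limma or voom on uncorrected values, and 1 valve marker had an unadjusted p below 0.05 by either tool. With length and GC corrected, where 12% of all genes were higher and 12.2% lower, cardiomyocyte markers had 2 higher and 3 lower, atrial 2 lower, mural 2 higher and 1 lower, endothelial 2 higher and 1 lower, and macrophage 1 lower. In that fit fibroblast markers had 0 higher by limma (1 at an unadjusted p below 0.05) and 8 lower, and 1 valve marker was higher (Lect1, 1.30, adjusted p = 0.0395). The part of these lists in the collagen changes was not tested.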

How the data were processed

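The authors deposited 1 table of normalized signal per gene. Judged by the values, these are estimated counts scaled by a single factor in each library so that the upper quartiles match (997.851 to 999.464). The submitters' processing notes name Picard 1.64, SAMtools, RSEM, DESeq2 and mm9 but not what each did. The aligner is not given in the sources used here. Per the labels' protocols, libraries used a stranded mRNA kit and a single-end run. Totals were 21656431 to 22330993. Of low values, 87.4% to 89.2% were within 0.05 of a whole multiple of the library's step, too few for a count test; total over step gave the estimated reads. Per-sample columns that matched no label (1) were not used.

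Symbols in 26 rows were restored from Entrez identifiers. The limma 3.58.1 trend fit (R 4.3.3) used log2(value + 1), which understates changes of low genes, over genes with a mean of 10 or more. Each heart is a separate animal. The correction subtracted lowess curves (span 0.3) on the longest GENCODE M21 transcript's length, then GC content (99.5% of tested genes had both). Voom used value over step. The code was tested on simulated data. Ratios used SciPy 1.17.1. The collagens and lists were chosen with earlier results of these data known. Named were all collagens past the threshold, a fixed set of heart collagens whatever their result, the members nearest the minimum, and up to 6 members of each list with the smallest p; exceptions are stated.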

Additional observations from a re-analysis of the deposited data

How the results depend on the processing

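In all 15 alternatives the calls of Col15a1, Col8a1, Col6a1, Col6a2, Col1a1, Col1a2, Col4a4 and Col5a3 held, while Col23a1 lost its call in 10, Col4a6 in 9 and Col27a1 in 8. With a heart left out, collagens higher numbered 2 to 4 and lower 8 to 16, biosynthesis genes higher 1 to 5 and lower 4 to 7, processing genes lower 3 to 6, receptors higher 2 to 4 and lower 1 to 2, and basement membrane partners lower 0 to 2. Calls over all genes tested fell too, from 2939 higher and 3098 lower to 2145 to 2799 higher and 2490 to 2856 lower. With the length and GC correction, the counts higher were 0 collagens, 1 biosynthesis gene, 0 receptors and 0 basement membrane partners, the counts lower were 2 biosynthesis genes and 4 partners, and the basement membrane collagen median was -1.09. With the mean transcript length instead, chosen after seeing the data, these were 2 collagens, 3 biosynthesis genes, 1 receptor and 2 partners higher, and 3 biosynthesis genes and 4 partners lower. Over all genes, 1628 were higher and 1648 lower with the first correction, and 2230 and 1785 with the mean transcript length. Receptors lower numbered 1 without the filter, and partners lower 1 with median-of-ratios scaling. The replicate block gave 3 collagens higher and 11 lower, losing Col23a1, Col27a1, Col4a3 and Col4a6 and gaining Col3a1, and 1 receptor lower. Same-numbered hearts deviated together with r of 0.238, 0.019 and 0.5, and vehicle replicates 1 and 2 correlated best with other numbers, so the numbers were not taken to pair hearts. Without the filter, 3 collagens were higher and 10 lower.

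Signs changed for members that had not passed. With a heart left out, Col11a2 ran from -0.15 (without vehicle replicate 1) to 0.51. Col7a1 ran from -0.10 (without vehicle replicate 2) to 0.55, with -0.05 without trametinib replicate 2, and was -0.13 with length and GC corrected. Col6a6 ran from -0.11 to 0.20 with a heart left out (-0.03, -0.11, -0.02 and -0.03 among them) and was -0.37 and -0.34 under the corrections. Col18a1 ran from -0.41 to 0.12 (without trametinib replicate 2), with 0.08 without vehicle replicate 3. The cause was not tested. Low members rest on few estimated reads, which limits Col6a5, Col7a1 and Col8a2.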
